A study of Mus musculus with 18 samples.

Results

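Adipocyte markers and lipogenic genes were measured in gracilis muscle of clenbuterol-treated mice as 33 genes in 2 classes, 18 that mark fat cells and 15 that encode enzymes and regulators of lipid synthesis. The genes were chosen by their known roles, with earlier results of these data known. Each was represented by the annotated probeset with the highest mean log2 signal. A probeset was found for 31 of the 33 genes, among 18193 genes with a single symbol on the MOE430A and MOE430B chips, and 30 were bright enough to be tested. Pparg fell under the filter on dim probesets and has levels but no test, and the levels of Plin1 and Cfd were not analysed here.

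The animals were male C57BL/6J mice, 3 to 5 wk of age, given intraperitoneal injections on 10 days. C mice received vehicle on all 10 days, 24 h mice received vehicle for 9 days and then clenbuterol once at 1 mg/kg, and 10 D mice received clenbuterol at 1 mg/kg on 10 days. Clenbuterol is an agonist of the beta-adrenergic receptor, and gracilis was collected 24 h after the final dose. RNA of 3 mice was combined in each pool, with 3 pools a group, and the 9 pools were each hybridized to both chips. The 27 mice, 9 a group, had been selected so that blood urea nitrogen and weight gain of the treated groups differed strongly from C, and cages rather than single mice were assigned to treatments, so the contrasts describe selected animals and the pools may share cages.

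Fat cells store triacylglycerol in a lipid droplet coated with perilipin and CIDE proteins, and secrete hormones such as adiponectin and leptin. De novo lipogenesis builds fatty acids from cytosolic acetyl-CoA, and the glycerolipid pathway then joins them to a glycerol backbone. Within skeletal muscle both kinds of transcript can come from fat cells lying between or around the fibers and from the fibers themselves, and beta-adrenergic signaling is known for stimulating lipolysis in fat cells.

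Each level below is a probeset signal over the median of that array, so a level of 1 equals the median probeset. Array medians ranged from 30.8 to 88.4 on MOE430A and from 13.2 to 37.1 on MOE430B. Pool 2 of 24 h and pool 2 of 10 D stood apart, with a mean correlation to the other pools of 0.876 and 0.870 on MOE430A, against 0.903 to 0.921 for the other 7 pools. Defining markers of muscle were high in every pool: the summed level of 16 fiber genes was 2898 to 4579 in C, 2535 to 3448 after 24 h and 2189 to 3689 after 10 D. A change is the log2 fold change ± its standard error from limma with n = 3 pools a group, and an adjusted p under 0.1 was called. In bulk tissue, fewer fat cells and less RNA per fat cell cannot be told apart.

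None of the 30 tested genes was called in any comparison. At 24 h against C, 0 members were called in either direction, where 0.329% of all tested probesets were called higher and 0.127% lower. At an unadjusted p under 0.05, 3 members were higher (Mest, Dgat1 and Cidea) and 4 lower (Fasn, Thrsp, Gpam and Dgat2). Among all tested probesets the shares were 5% higher and 3.55% lower. The geometric mean C signal of Cidea was under the filter on dim probesets. At 10 D against C there were 0 member calls, as for all probesets (0% higher and 0% lower). With no adjustment 1 was higher (Cidea) and 3 lower (Rbp4, Cidec and Dgat2), against 2.64% and 1.92% of probesets. The F test over the 3 groups also called 0 members, against 0.216% of probesets.

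The lower values were spread over both classes. At 24 h, 12 of the 16 measured fat cell markers and 12 of the 15 lipogenic genes had a negative log2 change, with medians of -0.49 and -0.42, beside a median of 0.02 over all tested probesets. At 10 D the medians were -0.32 for the fat cell markers, with 12 of 16 negative, and -0.14 for the lipogenic genes, with 10 of 15 negative, beside 0.01 over all tested probesets. These medians carry no test. Every 24 h pool lay above every C pool for 3 tested members and below for 4, which compares with 9.6% and 7.23% of all tested probesets, and at 10 D the counts were 0 and 4 beside 5.76% and 4.52%.

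**Figure D1:**
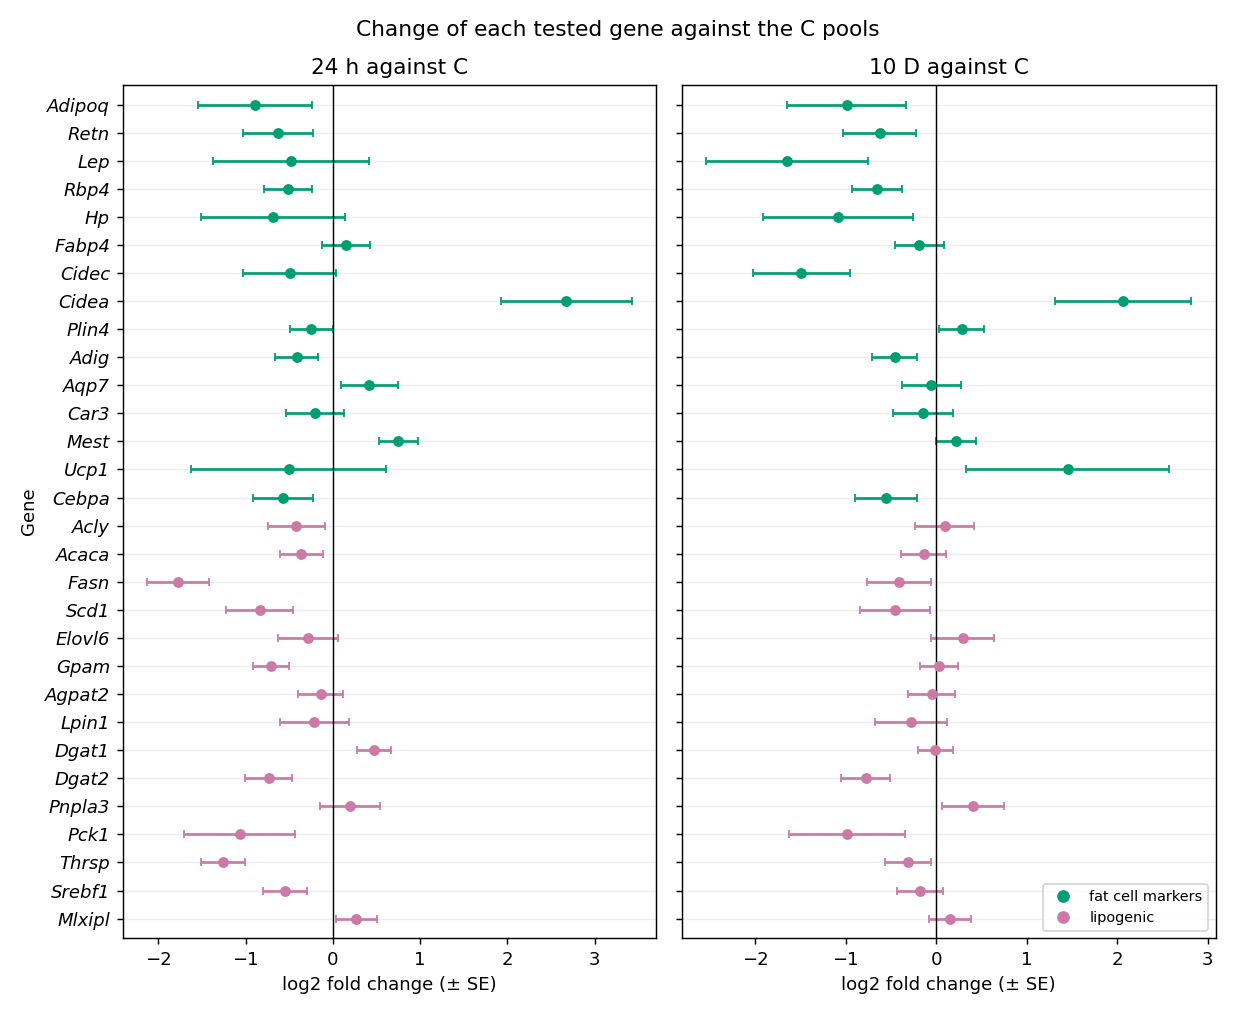
Log2 fold change ± SE (x axis) of the 30 tested genes (rows) at 24 h against C (left) and at 10 D against C (right), with fat cell markers in green and lipogenic genes in pink. Fasn and Thrsp have the lowest values at 24 h, -1.77 and -1.26, and lie nearer to 0 at 10 D, at -0.41 and -0.31.

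Fasn and Thrsp came closest to the threshold. Fasn encodes fatty acid synthase, the enzyme that makes palmitate, and its level was 8.47, 13.2 and 5.08 in the C pools, 2.06, 2.90 and 2.37 after 24 h and 5.51, 8.92 and 4.95 after 10 D. All 24 h pools lay below all C pools, while the 10 D pools lay within or close to the C range. The change at 24 h against C was -1.77 ± 0.36, or 0.292 times the C level (limma, adjusted p = 0.105), and at 10 D against C it was -0.41 ± 0.36 (adjusted p = 1.00). Compared with 24 h, the 10 D level was 2.58 times as high, with all 10 D pools above all 24 h pools, but the difference was not called (adjusted p = 0.48).

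Thrsp, which encodes the thyroid hormone responsive Spot 14 protein of lipogenic tissues, followed the same order. Its level was 11.7, 16.9 and 11.6 in C, 6.40, 5.46 and 4.76 after 24 h and 12.4, 12.0 and 8 after 10 D. Thus the 24 h pools were separate from both other groups. The log2 change was -1.26 ± 0.25 at 24 h against C (limma, adjusted p = 0.104) and -0.31 ± 0.25 at 10 D against C (adjusted p = 1.00). At 10 D against 24 h it was 0.95 ± 0.25 (adjusted p = 0.50). A dimmer Thrsp probeset had a change of -0.69 at 24 h, and the dimmest of the 3 had the opposite sign, 0.61.

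Gpam was also lowest in the 24 h pools. It encodes the mitochondrial acyltransferase that starts glycerolipid synthesis, and its level was 35.2, 33.7 and 45.5 in C, 23.7, 23.4 and 22.2 after 24 h and 31.6, 42.0 and 43.4 after 10 D. The 24 h pools were tightly grouped below all others. The change was -0.71 ± 0.21 at 24 h against C (limma, adjusted p = 0.30), 0.03 ± 0.21 at 10 D against C (adjusted p = 1.00) and 0.74 ± 0.21 at 10 D against 24 h (adjusted p = 0.56). Its second probeset had a change of -1.13 at 24 h.

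Whether Fasn and Thrsp passed the threshold at 24 h depended on the settings. Thrsp was called under 8 of 19 alternative settings and Fasn under 4, with adjusted p between 0.0613 and 0.389 for Thrsp and between 0.0355 and 0.364 for Fasn. Without pool 2 of 10 D both were called, with adjusted p of 0.0489 for Fasn and 0.0631 for Thrsp, and without pool 1 of 10 D Thrsp was (0.0969).

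The promoters of these 3 genes, shown because all 24 h pools of each lay below all C and 10 D pools, were read from RefSeq (GRCm38.p6) as the 250 bases before the annotated start. Capitals mark CCAAT boxes (CCAAT on either strand, the binding letters of nuclear factor Y). The leptin window is shown beside them for the C/EBP site (TTGCNNAA on either strand, in capitals), because C/EBP alpha, the product of the member Cebpa, drives fat cell differentiation. The windows are chr11:120824548-120824797 (minus strand) for Fasn, chr7:97417551-97417800 (minus strand) for Thrsp, chr19:55127239-55127488 (minus strand) for 1 of 2 Gpam starts and chr6:29059971-29060220 (plus strand) for Lep.
Fasn: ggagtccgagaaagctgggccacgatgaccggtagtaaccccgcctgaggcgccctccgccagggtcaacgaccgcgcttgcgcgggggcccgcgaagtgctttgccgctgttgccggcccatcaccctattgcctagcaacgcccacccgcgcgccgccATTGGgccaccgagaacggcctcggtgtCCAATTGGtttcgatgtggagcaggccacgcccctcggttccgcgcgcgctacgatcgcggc
Thrsp: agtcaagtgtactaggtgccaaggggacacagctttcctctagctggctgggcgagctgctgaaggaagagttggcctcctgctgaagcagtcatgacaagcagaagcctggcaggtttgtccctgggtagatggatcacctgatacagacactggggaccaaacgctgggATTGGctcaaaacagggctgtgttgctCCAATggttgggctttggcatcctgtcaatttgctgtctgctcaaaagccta
Gpam: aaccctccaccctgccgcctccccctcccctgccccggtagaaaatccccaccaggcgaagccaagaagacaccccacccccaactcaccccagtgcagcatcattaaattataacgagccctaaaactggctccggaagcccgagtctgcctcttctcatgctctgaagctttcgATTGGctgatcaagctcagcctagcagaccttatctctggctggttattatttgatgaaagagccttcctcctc
Lep: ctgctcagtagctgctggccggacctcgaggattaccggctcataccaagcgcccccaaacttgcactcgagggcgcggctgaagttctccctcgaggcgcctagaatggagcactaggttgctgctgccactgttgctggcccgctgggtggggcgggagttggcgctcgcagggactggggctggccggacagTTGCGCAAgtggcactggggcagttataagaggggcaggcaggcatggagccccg

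In the Fasn window there were 3 CCAAT matches, of which 2 overlap on opposite strands, with first bases 90, 62 and 59 bases before the start. Thrsp had 2, at 79 and 52 bases, and the Gpam window shown had 1, at 74 bases. The window of the other Gpam start held 0. CCAAT was found in 33.9% of 32851 promoter windows of the same length, and at least 1 window held it in 6 of the 12 lipogenic genes and 4 of the 14 fat cell markers with a promoter in the table, Plin1 and Cfd included. The C/EBP letters were in a window of 6 of the 14 fat cell markers, among them Lep at 55 bases, and of 0 of the 12 lipogenic genes, against 9.56% of all windows. The E-box CACGTG (6.02% of windows) and the sterol regulatory letters TCACNCCAC (1.05%) were each found in 1 lipogenic gene, Mlxipl, and in 0 fat cell markers, and the TATA box TATAAA (12.4%) in 3 fat cell markers and 0 lipogenic genes. Genes with several starts had several windows, so the counts of genes and the shares of windows are in unlike units. Several windows can raise a count of genes. Matches of different motifs were allowed to overlap, and a match is only a description of letters.

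**Figure D2:**
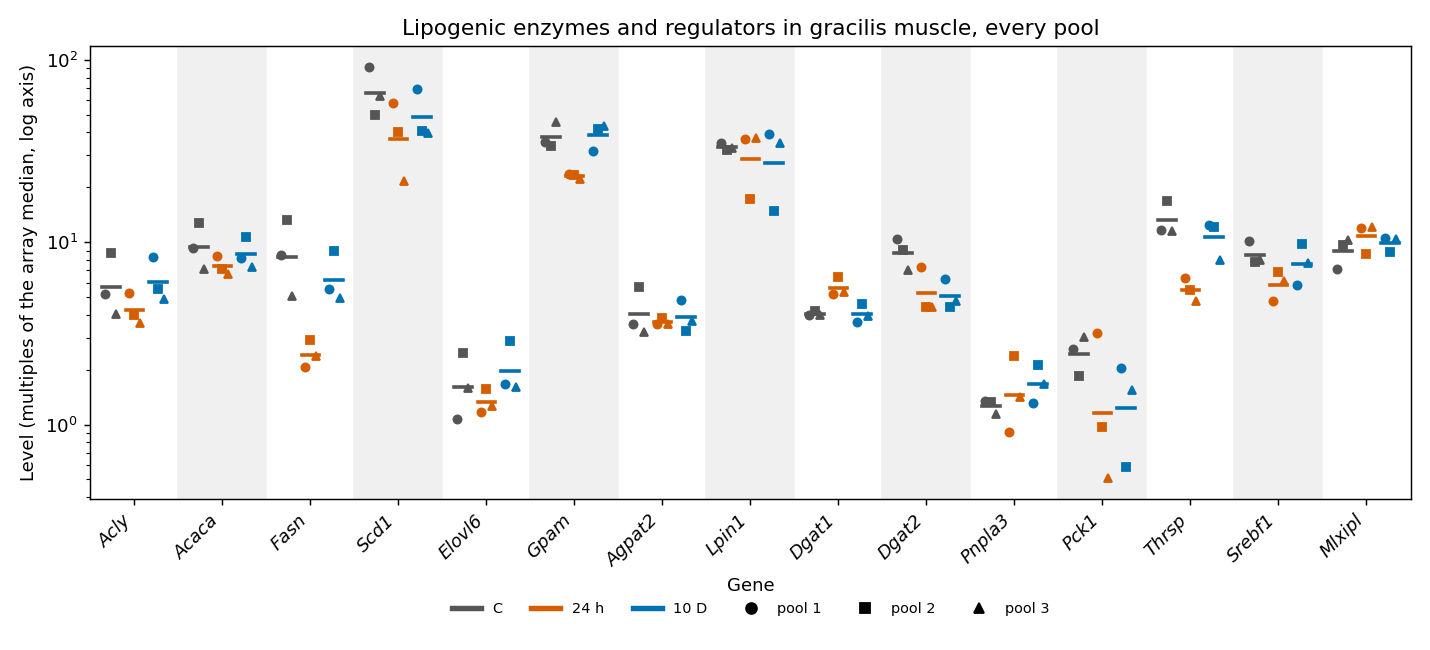
Level of the 15 lipogenic genes (x axis) as multiples of the array median on a log axis (y axis), with C in gray, 24 h in orange and 10 D in blue, pools 1, 2 and 3 as circle, square and triangle, and a bar at the mean of the log2 levels. For Fasn, Thrsp and Gpam the 3 orange points lie below every gray and blue point.

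The other fatty acid synthesis enzymes had smaller changes. All 5 genes of this group had negative log2 changes at 24 h, with a median of -0.42 and 0 calls, and at 10 D 3 of 5 were negative with a median of -0.14. Scd1, the desaturase that makes oleate, had a level of 91.9, 49.6 and 63.1 in C, 58.1, 40.0 and 21.8 after 24 h and 69.4, 40.9 and 39.7 after 10 D. The groups overlapped, and the change at 24 h was -0.84 ± 0.38 (limma, adjusted p = 0.60). Its second probeset had a change of -1.05.

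Acly makes cytosolic acetyl-CoA from citrate. Its level was 5.17, 8.74 and 4.02 in C, 5.29, 4.01 and 3.60 after 24 h and 8.24, 5.53 and 4.85 after 10 D, so all groups overlapped. Acaca, which carboxylates acetyl-CoA to malonyl-CoA, had 9.33, 12.8 and 7.09 in C, 8.43, 7.09 and 6.66 after 24 h and 8.23, 10.7 and 7.27 after 10 D. Elovl6, which elongates palmitate, had 1.07, 2.47 and 1.58 in C, 1.17, 1.57 and 1.26 after 24 h and 1.67, 2.88 and 1.61 after 10 D. Pool 2 of C was the highest C pool for each of Acly, Acaca, Elovl6 and Fasn. Changes at 24 h were -0.42 ± 0.32 for Acly, -0.36 ± 0.25 for Acaca and -0.29 ± 0.35 for Elovl6, and a dimmer probeset of Acaca had the opposite sign, 0.59.

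Among the 7 enzymes that build glycerolipids, 5 had negative changes at 24 h and 5 at 10 D, with medians of -0.21 and -0.05. Dgat2 and Dgat1 encode the acyltransferases that make triacylglycerol from diacylglycerol. For Dgat2 the level was 10.5, 9.01 and 7.07 in C, 7.36, 4.41 and 4.44 after 24 h and 6.26, 4.43 and 4.79 after 10 D. All 10 D pools lay below all C pools, and at 24 h pool 1 overlapped the C range. Changes were -0.74 ± 0.27 at 24 h (limma, adjusted p = 0.46) and -0.78 ± 0.27 at 10 D (adjusted p = 1.00), and -0.29 and -0.47 on the dimmer Dgat2 probeset.

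Dgat1 had a level of 4.01, 4.19 and 3.97 in C, 5.22, 6.41 and 5.35 after 24 h and 3.63, 4.59 and 3.94 after 10 D. The 24 h pools lay above both other groups, by 0.47 ± 0.20 over C (limma, adjusted p = 0.53). The dim second probeset of Dgat1 had a change of -0.80 at 24 h, so the direction is not shared by its probesets.

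Lpin1, a phosphatidate phosphatase, had a level of 34.8, 31.9 and 33 in C, 36.8, 17.3 and 37.2 after 24 h and 39.3, 14.8 and 35.1 after 10 D. Only the pools 2 of the treated groups were low, and these are the pools that stood apart over all probesets. Agpat2, the next acyltransferase after Gpam, had 3.56, 5.66 and 3.24 in C, 3.57, 3.83 and 3.56 after 24 h and 4.84, 3.26 and 3.71 after 10 D. Pnpla3, a lipid droplet hydrolase and acyltransferase, had 1.34, 1.32 and 1.14 in C, 0.907, 2.37 and 1.41 after 24 h and 1.32, 2.11 and 1.68 after 10 D. For both genes the groups overlapped.

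Pck1 makes phosphoenolpyruvate and in fat cells feeds glycerol synthesis. Its level was 2.61, 1.84 and 3.00 in C, 3.18, 0.964 and 0.509 after 24 h and 2.05, 0.586 and 1.54 after 10 D. Pool 1 of each treated group lay within or above the C range, and the other treated pools lay below it, which left changes of -1.07 ± 0.64 and -0.99 ± 0.64 uncalled (limma, adjusted p = 0.70 and 1.00).

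The transcription factors that drive lipogenic genes did not move as one. Srebf1, the gene of the sterol regulatory element binding protein, had a level of 10.1, 7.75 and 7.97 in C, 4.75, 6.85 and 6.11 after 24 h and 5.79, 9.71 and 7.70 after 10 D. The 24 h pools all lay below the C pools, with a change of -0.55 ± 0.25 (limma, adjusted p = 0.59), and the 10 D pools overlapped both groups. Mlxipl, the gene of the carbohydrate response element binding protein, had 7.11, 9.69 and 10.3 in C, 12.0, 8.58 and 12.2 after 24 h and 10.5, 8.83 and 10.5 after 10 D, with overlapping groups and changes of 0.27 ± 0.23 and 0.15 ± 0.23.

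The treated groups were also compared with each other. At 10 D against 24 h, 11 of 15 lipogenic genes had a positive log2 change with a median of 0.23, and 6 of 16 fat cell markers did, with a median of -0.12, beside -0.01 over all tested probesets. No member was called, against 0.0148% of probesets called higher and 0.0356% lower, and at an unadjusted p under 0.05 members were 3 higher (Fasn, Gpam and Thrsp) and 2 lower (Mest and Dgat1), against 2.52% and 2.95%. All 10 D pools lay above all 24 h pools for 5 members and below for 4, beside 4.17% and 5.1% of probesets. The summed level of the 15 lipogenic genes was 237, 209 and 208 in C, 179, 135 and 133 after 24 h and 211, 171 and 179 after 10 D, a sum in which the bright Scd1, Gpam and Lpin1 weigh most. By this sum all 24 h pools lay below all C pools. The summed level of the 16 measured fat cell markers was 348 to 493 in C, 307 to 479 after 24 h and 288 to 445 after 10 D. The groups overlapped in that sum, in which the bright Car3 and Fabp4 weigh most. No test was run on either sum.

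The class median of the fat cell markers varied more between pools of a group than that of the lipogenic genes. This does not measure the spread of single genes. The spread between pools of a group in the median log2 level of the class was 0.37 (SD) for the fat cell markers and 0.12 for the lipogenic genes. The 5 secreted proteins all had negative changes in both treated groups, with medians of -0.63 at 24 h and -0.99 at 10 D and 0 calls.

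Adipoq encodes adiponectin, the abundant hormone of fat cells. Its level was 21.2, 18.8 and 25.7 in C, 26.7, 7.90 and 7.64 after 24 h and 28.8, 4.13 and 11.1 after 10 D. Pool 1 of each treated group was thus above every C pool, and pools 2 and 3 were below every C pool. The change was -0.89 ± 0.66 at 24 h and -0.99 ± 0.66 at 10 D (limma, adjusted p = 0.77 and 1.00).

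Hp, the gene of the hemoglobin-binding plasma protein haptoglobin, had a level of 17.3, 6.87 and 5.99 in C, 16.1, 2.87 and 3.66 after 24 h and 14.8, 2.13 and 2.36 after 10 D. Lep, the gene of the appetite hormone leptin, had 1.69, 0.972 and 0.364 in C, 1.30, 0.524 and 0.323 after 24 h and 1.11, 0.143 and 0.124 after 10 D. In both genes pool 1 was the highest pool of each group, C included. The changes of Hp were -0.69 ± 0.82 at 24 h and -1.08 ± 0.82 at 10 D. Those of Lep were -0.48 ± 0.89 and -1.64 ± 0.89 in the same order. The geometric mean signal of Lep at 10 D was 13.96, under the filter of 14.09 on that chip. Its 10 D change is therefore given as a description.

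Retn, the gene of resistin, had a level of 8.32, 5.25 and 7.32 in C, 7.02, 5.01 and 2.46 after 24 h and 5.56, 5.55 and 2.85 after 10 D, with overlapping groups and changes of -0.63 ± 0.40 and -0.62 ± 0.40. Rbp4, which carries retinol in blood, had 2.27, 1.45 and 1.91 in C, 1.63, 1.37 and 0.963 after 24 h and 1.35, 1.16 and 1.03 after 10 D. All 10 D pools lay below the C pools for Rbp4, with a change of -0.65 ± 0.28 (limma, adjusted p = 1.00).

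**Figure D3:**
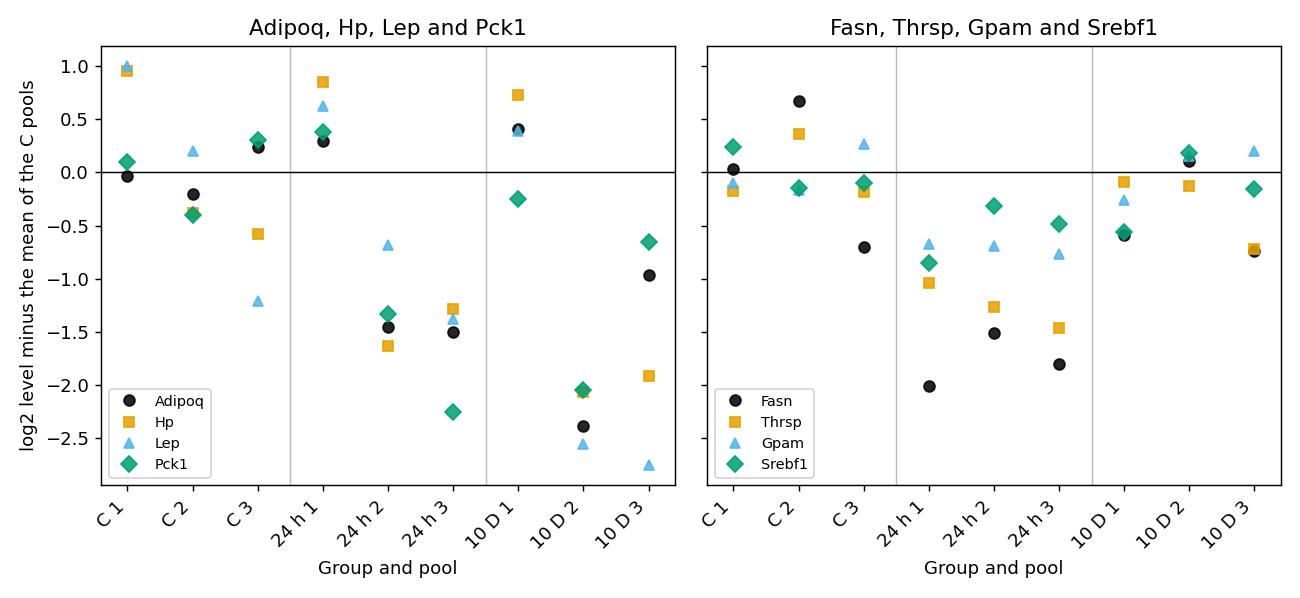
Log2 level minus the mean of the 3 C pools (y axis) in each pool (x axis), for Adipoq, Hp, Lep and Pck1 (left) and for Fasn, Thrsp, Gpam and Srebf1 (right). On the left, pool 1 of 24 h and of 10 D lies at -0.25 or above and the other treated pools lie between -2.76 and -0.66, while on the right all 24 h pools lie below 0.

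The order of pools thus differed between the gene sets in this plot, whose 8 genes were picked after their values had been seen. In pool 1 of 24 h, 2 of 16 fat cell markers lay below the mean of C, against 11 in pool 2 and 13 in pool 3, while for the lipogenic genes the counts were 11, 13 and 11 of 15. At 10 D the counts were 7, 9 and 12 of 16 fat cell markers and 8, 8 and 11 of 15 lipogenic genes. Within C, pool by pool, they were 5, 9 and 9 of 16 and 8, 5 and 12 of 15. The methods state that mice were put into pools at random within a treatment.

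Lipid droplet and lipid transport genes had mixed changes. Cidec, whose protein fuses lipid droplets, had a level of 3.33, 1.98 and 2.35 in C, 2.90, 1.65 and 1.16 after 24 h and 1.48, 0.354 and 1.34 after 10 D. All 10 D pools lay below all C pools, with a change of -1.49 ± 0.54 (limma, adjusted p = 1.00), and at 24 h it was -0.49 ± 0.54.

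Cidea, a droplet protein abundant in brown fat, had the highest positive change of the members and was dim. Its level was 0.104, 1.34 and 0.178 in C, 2.38, 1.60 and 1.71 after 24 h and 1.41, 1.15 and 1.13 after 10 D. Pools 1 and 3 of C were low and pool 2 lay near the treated pools. The geometric mean signal of Cidea was 90.3 at 24 h and 63.2 at 10 D, against 12.9 in C. The C value is under the filter of 14.1 on that chip. Cidea was thus tested only through its treated pools, and its changes are given as a description. The change was 2.68 ± 0.75 at 24 h (limma, adjusted p = 0.27) and 2.07 ± 0.75 at 10 D (adjusted p = 1.00), and the 24 h change was called in 1 of 18 alternatives. It was 3.78 without pool 2 of C (adjusted p = 0.0168), 1.93 without pool 1 (0.69) and 2.32 without pool 3 (0.58).

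Fabp4, the fatty acid binding protein of fat cells and capillary endothelium, had a level of 118, 76.9 and 96.7 in C, 100, 138 and 87.1 after 24 h and 65.4, 111 and 82.8 after 10 D. Plin4, a droplet coat protein also found in muscle, had 15.4, 21.8 and 15.7 in C, 17.8, 11.5 and 15.4 after 24 h and 19.0, 18.9 and 26.5 after 10 D. Aqp7, the glycerol channel, had 0.399, 0.568 and 0.528 in C, 0.565, 0.739 and 0.685 after 24 h and 0.533, 0.417 and 0.483 after 10 D. The 24 h and C pools overlapped for all 3 of these genes, and their changes at 24 h were 0.15 ± 0.27, -0.25 ± 0.25 and 0.42 ± 0.33 in the order given.

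**Figure D4:**
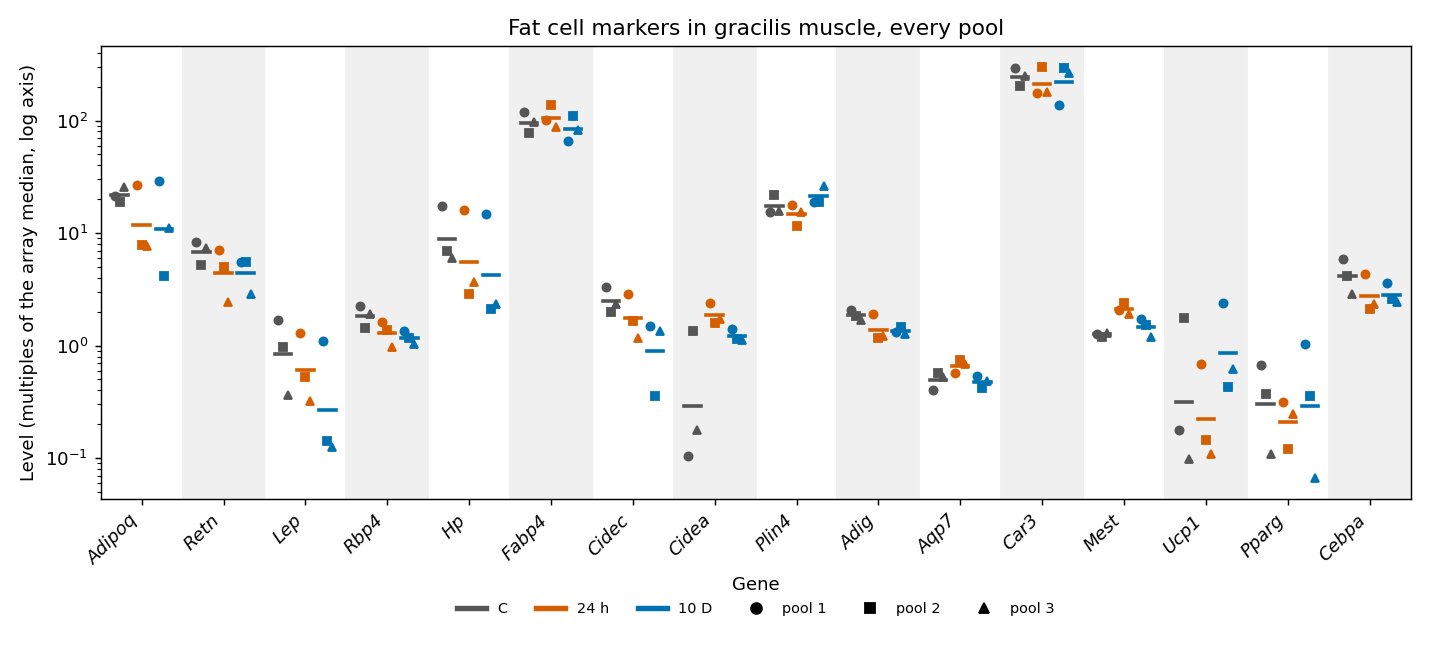
Level of the 16 measured fat cell markers (x axis) as multiples of the array median on a log axis (y axis), with C in gray, 24 h in orange and 10 D in blue, pools 1, 2 and 3 as circle, square and triangle, and a bar at the mean of the log2 levels. The circles of Adipoq, Hp and Lep lie close together across the groups, between 21.2 and 28.8 for Adipoq, while the treated squares and triangles lie lower.

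The remaining fat cell proteins and factors also had no call. Mest, an imprinted gene linked to fat cell enlargement, had a level of 1.28, 1.20 and 1.30 in C, 2.07, 2.41 and 1.91 after 24 h and 1.72, 1.54 and 1.20 after 10 D. The 24 h pools lay above all other pools for Mest, with a change of 0.75 ± 0.22, or 1.68 times the C level (limma, adjusted p = 0.31). Adig, the gene of adipogenin, had 2.05, 1.82 and 1.70 in C, 1.91, 1.16 and 1.21 after 24 h and 1.33, 1.46 and 1.28 after 10 D, with all 10 D pools below C and a change of -0.46 ± 0.25.

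Car3, a carbonic anhydrase of both fat and slow muscle fibers, had a level of 294, 203 and 247 in C, 176, 302 and 180 after 24 h and 138, 294 and 267 after 10 D. Its 4 probesets had changes between -0.97 and 0.23 at 24 h, so no direction is given. Ucp1, the uncoupling protein of brown fat, was dim and uneven, at 0.179, 1.77 and 0.0981 in C, 0.681, 0.146 and 0.110 after 24 h and 2.38, 0.429 and 0.624 after 10 D. Within each group its pools differed by several fold. The geometric mean signal of Ucp1 was 13.8 in C and 10.7 at 24 h, both under the filter of 14.1 on that chip, and 44.5 at 10 D. Ucp1 was thus tested only through its 10 D pools, and its plotted changes are a description.

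Of the 2 transcription factors of fat cell differentiation, Cebpa had a level of 5.86, 4.16 and 2.87 in C, 4.31, 2.13 and 2.34 after 24 h and 3.58, 2.57 and 2.43 after 10 D. Its groups overlapped, with changes of -0.57 ± 0.34 and -0.55 ± 0.34. Pparg was at 0.672, 0.371 and 0.110 in C, 0.317, 0.120 and 0.247 after 24 h and 1.02, 0.357 and 0.0665 after 10 D, too dim to be tested.

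Among other genes of the same cells and pathways, Agt and Plin5 alone were called at 24 h, where 0.329% of all tested probesets were called higher. Of 31 measured genes in a second list of fat cell genes, 22 had negative changes at 24 h and 23 at 10 D, with medians of -0.36 and -0.24, and 1 was called. This was Agt, the gene of angiotensinogen, with a level of 0.451, 0.377 and 0.397 in C, 4.91, 2.03 and 3.13 after 24 h and 1.45, 1.07 and 1.23 after 10 D. Agt rose at 24 h by 2.95 ± 0.32 (limma, adjusted p = 0.00801), and all treated pools lay above all C pools. Fabp5, a fatty acid binding protein of fat cells, macrophages and skin, had 7.99, 8.90 and 6.27 in C, 19.5, 35.8 and 18.4 after 24 h and 7.44, 23.0 and 8.62 after 10 D. All 24 h pools of Fabp5 lay above the C pools, with an uncalled change of 1.62 ± 0.42 (limma, adjusted p = 0.23), while Ces1d, a carboxylesterase that hydrolyzes lipids, had a change of -1.49 ± 0.45 at 24 h (adjusted p = 0.32).

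Of 36 measured genes in a second list of lipogenesis genes, 21 had positive and 15 negative changes at 24 h, with a median of 0.08 and 0 calls. The members of this list with the smallest F-test p included Elovl5, a fatty acid elongase, and Fads2, the delta-6 desaturase. Their changes at 24 h were 0.76 and -1.34, neither called (limma, adjusted p = 0.49 for each). Fads2 was dim, with a mean signal of 18.6 beside a filter of 14.1 on MOE430A. Its 24 h change ranged from -1.62 to -0.46 over 18 alternative settings. Of 16 measured adipogenic regulators, which are transcription factors and the ligand gene Bmp4, 10 had negative changes at 24 h and 8 at 10 D, with medians of -0.20 and 0.01 and 0 calls. The lowest of them at 24 h was Rxra, the dimer partner of PPAR gamma, with a level of 6.67, 6.02 and 5.02 in C, 3.47, 2.15 and 4.05 after 24 h and 4.63, 2.68 and 5.21 after 10 D. All 24 h pools of Rxra lay below the C pools, by a log2 change of -0.91 ± 0.32 (limma, adjusted p = 0.42). Of 11 measured brown fat genes, 7 had positive changes at 24 h and 5 at 10 D, with medians of 0.22 and -0.03 and 0 calls.

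Of 14 measured genes of lipid handling in muscle, 1 was called. Plin5, the perilipin of oxidative tissues, had a level of 7.47, 6.46 and 7.11 in C, 24.8, 55.9 and 29.4 after 24 h and 4.78, 6.02 and 12.9 after 10 D. Plin5 rose at 24 h by 2.30 ± 0.37, or 4.92 times the C level (limma, adjusted p = 0.0415), and at 10 D its pools spanned the C range. The call did not hold without any 1 of the C pools (adjusted p = 0.19, 0.20 and 0.158), without pool 2 or pool 3 of 24 h (0.127 and 0.141), with no intensity trend (0.146) or with the methods' linear model (0.219). Lpl, which releases fatty acids from lipoproteins, had a change of -0.47 ± 0.20 at 24 h and Lipe, the hormone-sensitive lipase, -0.50 ± 0.26, neither called.

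Markers of other cells were measured in the same pools. The summed level of 6 markers of fibro-adipogenic progenitors, the stromal cells that can become fat cells, was 66.7 to 93.5 in C, 46.5 to 79.0 after 24 h and 60.8 to 67.9 after 10 D, and 5 of the 6 had negative changes at 24 h. The median change of these 6 was -0.47 at 24 h and -0.31 at 10 D, with 0 calls. The sum of 9 skin and keratinocyte markers was 11.3 to 37.0 in C, 9.01 to 12.0 after 24 h and 8.90 to 17.2 after 10 D, with pool 3 of C highest. Of these 9, 7 had negative changes at 24 h and 6 at 10 D, with medians of -0.85 and -0.27 and 0 calls. The 24 h medians stand beside -0.49 for the fat cell markers and -0.42 for the lipogenic genes. Of the 16 fiber genes, 15 had negative changes at 24 h and 15 at 10 D, with medians of -0.24 in each and 0 calls. Of 8 endothelial markers 6, and of 9 macrophage markers 7, had positive changes at 24 h, with medians of 0.15 and 0.05 and 0 calls. At 10 D, 7 of the 8 endothelial markers had negative changes and 5 of the 9 macrophage markers positive ones, with medians of -0.10 and 0.07 and 0 calls, and at 10 D against 24 h all 8 endothelial markers were negative. The summed endothelial level was 29.6 to 31.9 in C, 31.8 to 38.0 after 24 h and 24.2 to 28.7 after 10 D, so all 10 D pools lay below all others. The part of these cells in the lower values of the members was not tested. The summed level of 7 liver genes was 2.62 to 4.43 over all pools.

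Across the 9 pools the members as a whole did not form a tight block, but some pairs ran close together. Pearson r was 0.93 for Cebpa and Dgat2, 0.92 for Adipoq and Pck1 and 0.91 for Hp and Lep. Other pairs ran against each other, at -0.67 for Fabp4 and Plin4 and -0.83 for Mest and Gpam. These pairs were picked by their values. The median Pearson r was 0.05 over 120 pairs of fat cell markers, 0.17 over 105 pairs of lipogenic genes and 0.09 over 240 pairs between the classes, and the pools share their array scaling. Within groups the medians were 0.19, 0.06 and 0.09, so the order of the 2 classes was not kept. The non-member probesets most like the mean standardized log2 level of the fat cell markers were those of Meaf6, Rtf2, Fmod, Txndc5, Nnmt, Usp7, Ccnd2, Rab2a, Mmp14 and Prkra, with r from 0.909 to 0.936 over 9 pools, the 10 highest of all tested probesets with 1 symbol. Those of Rtf2 and Prkra were dim, with mean signals of 7.52 and 7.10 beside a filter of 6.97 on MOE430B.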

How the data were processed

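The authors quantified each array with Microarray Suite and deposited signal intensities on a linear scale, not scaled between arrays, and the genome build of the probes was not given in the sources used here. Columns were assigned to pools by the titles of the samples. In R 4.3.3 with limma 3.58.1, each intensity was scaled to an array median of 1, 18 zeros were set to 0.05, and log2 was taken. Probesets with a mean log2 signal at or above the 25th percentile of the chip (33752 of 45037) were fitted with a mean per group (lmFit, then eBayes with an intensity trend, 6 residual degrees of freedom), and two-sided p-values were adjusted over MOE430A and MOE430B jointly by Benjamini-Hochberg. An adjusted p under 0.1, the false discovery rate in the study's methods, was called. An exact permutation test of 3 against 3 pools cannot go below 0.1. Genes were named by the platform annotation through the GRCm38.p6 gene table, at 1 probeset per gene, the one with the highest mean log2 signal. The members and lists were chosen with earlier results of these data known. All members were named, with called genes and up to 4 genes of the other lists as candidates. Pools hold different mice, so p-values measure the spread between pools. The scripts were tested on simulated data. Promoters were searched in Python and figures drawn with matplotlib. Array intensities carry no read depth, and the number of arrays limits the precision.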

Additional observations from a re-analysis of the deposited data

How the results depend on the processing

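Leaving out 1 pool at a time, 0 to 2 members were called at 24 h against C and 0 to 1 by the F test (Cidea without pool 2 of C). Cidea was tested only through its treated pools, and pool 2 was its highest C pool, so its calls are given only as a description. At 24 h against C, 0 members were called in the fit reported. Thrsp alone was called (1 member) with quantile normalization, with division by the 75th percentile and with log2(level + 0.5). Both Fasn and Thrsp (2 members) were called with a filter at the 50th percentile, which tests fewer probesets, and without pool 2 of 24 h and pool 2 of 10 D together. The last setting also gave 1 member, Fasn, in the F test. With the pool number as a replicate block, 2 members, Fasn (adjusted p = 0.0403) and Thrsp (0.0685), were called at 24 h and 1, Fasn, in the F test. The pool numbers were not taken as pairs, because the methods state that mice were put into pools at random within a treatment. The deviations of same-numbered C and treated pools correlated between -0.072 and 0.046. Those of same-numbered 10 D and 24 h pools correlated at 0.39, 0.56 and 0.10 on MOE430A and at 0.11, 0.16 and 0.008 on MOE430B, and with the block 0 members were called at 10 D against 24 h. In neither contrast of 10 D was a member called under any setting.

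The median change of the lipogenic genes at 24 h ranged from -0.58 to -0.24 with 1 pool left out, and that at 10 D against 24 h from 0.16 to 0.44, and was 0.40 without both treated pools 2. The median of the fat cell markers ranged from -0.74 to -0.20 at 24 h and from -0.58 to -0.25 at 10 D, and at 10 D against 24 h it changed sign, from -0.41 to 0.11. Of 60 changes of single members against C, 19 changed sign in at least 1 of the alternatives (41 of 1132 values), none of them called. Over all probesets, 154 were called at 24 h, between 24 and 435 with 1 pool left out, 52 with no intensity trend, 100 with the methods' linear model, 208 with quantile normalization, 209 with the replicate block, 225 with the 50th-percentile filter and 599 without both treated pools 2. The causes of these differences were not tested. The 3 pools a group limit what can be called.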
